A study of Mus musculus with 6 samples.

Results

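Heterotrimeric G proteins and their RGS regulators were examined in type 2 conventional dendritic cells (cDC2s) of the mouse spleen, in IRF4-deficient and wild-type (WT) samples. The genes were taken by symbol from a table of raw RNA-seq counts: those named Gna, Gnb or Gng for G protein α, β and γ subunits, and those named Rgs with a number. Gnb2l1 and Gnb1l, which carry a similar name but are not β subunits, were left aside. Of 43 such rows 39 had at least 10 reads summed over the 6 libraries, and the whole table holds 14535 rows. They comprise 26 subunit genes and 13 RGS genes, of which Rgs7bp and Rgs9bp encode proteins that bind RGS proteins and carry no RGS domain themselves. Gnai1, Gnat2, Rgs4 and Rgs9 were left out, with 0, 5, 3 and 5 reads.

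A heterotrimeric G protein couples a seven-helix receptor, such as a chemokine receptor, to enzymes inside the cell. The α subunit decides which enzyme is reached: Gαs stimulates adenylyl cyclase, Gαi inhibits it, and Gαq activates phospholipase C β, while the released βγ pair signals on its own to phosphoinositide 3-kinase γ and phospholipase C β. RGS proteins speed up GTP hydrolysis by α subunits and so shorten the signal. In dendritic cells the Gαi class is known for carrying chemokine receptor signals during migration.

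The IRF4-deficient group (3 libraries) had the genotype CD11c-Cre Irf4fl/fl, and Cre driven by the CD11c promoter removes the floxed part of Irf4 in cells that express CD11c. They were set against 3 WT libraries. All were from spleen cDC2s of C57BL/6 mice, and the labels give no age, sort gate or Cre-only group, so the effects of Cre and of Irf4 loss cannot be told apart. Nor do the labels name separate animals for the replicates, so the p-values rest on a spread between libraries that may be technical.

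Library totals ran from 7949462 to 10609420 reads in IRF4-deficient and from 7421605 to 11459920 reads in WT samples. Levels are TMM-scaled CPM, and single libraries are listed as replicates 1, 2 and 3. Irf4 itself had 90.8, 65.3 and 83.95 CPM in the IRF4-deficient libraries, against 292, 296 and 345 CPM in the WT libraries, a count over the whole gene that does not show which exons were left. Of 6 cDC2 identity genes Itgax, Itgam and Sirpa were above 500 CPM in every library. Itgam was higher at 1869 CPM in IRF4-deficient cDC2s, against 617 CPM in WT, whereas Flt3 was lower at 250.4 CPM in IRF4-deficient cDC2s, against 413 CPM in WT, and Zbtb46 was lower at 42.3 CPM in IRF4-deficient cDC2s, against 80.9 CPM in WT. Of 12 red pulp macrophage genes 7 were called higher (edgeR adjusted p under 0.05), beside 9.87% of all genes tested, and the list summed to 1652 to 3158 CPM in IRF4-deficient libraries, against 990.1 to 1311 CPM in WT. The summed markers of B cells, T cells, NK cells, plasmacytoid dendritic cells and erythroid cells overlapped between the groups, but single markers were called. Of 8 tested B cell markers Cr2 and Ms4a1 were lower and Cd79b higher, of 6 for T cells Thy1 was higher, and of 6 for plasmacytoid dendritic cells Cox6a2 and Siglech were higher and Ccr9 lower. The part of these cells in the results was not tested. The 5 neutrophil markers summed to 1.47 to 2.004 CPM in IRF4-deficient and 2.46 to 12.5 CPM in WT libraries.

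Of the 39 genes 30 passed the filter on low counts, and 10 of these were called, against 20.4% of all 11934 genes tested. Called higher in IRF4-deficient cDC2s were 6 of them (9.87% of all genes), namely Gnas, Gnai2, Gna12, Gngt2, Rgs14 and Rgs7bp. Called lower were 4 (10.5% of all genes), namely Gnaq, Gnb4, Rgs18 and Rgs9bp. The change was at least 1.5-fold for 8 of the 30 (13.4% of all genes). In 10 of the 30 the libraries of the groups did not overlap, and 35.6% of all tested genes did the same. The median absolute log2 fold change was 0.266 over the 30 and 0.262 over all genes. On the log2 scale the largest change of the 30 was that of Rgs7bp.

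**Figure D1:**
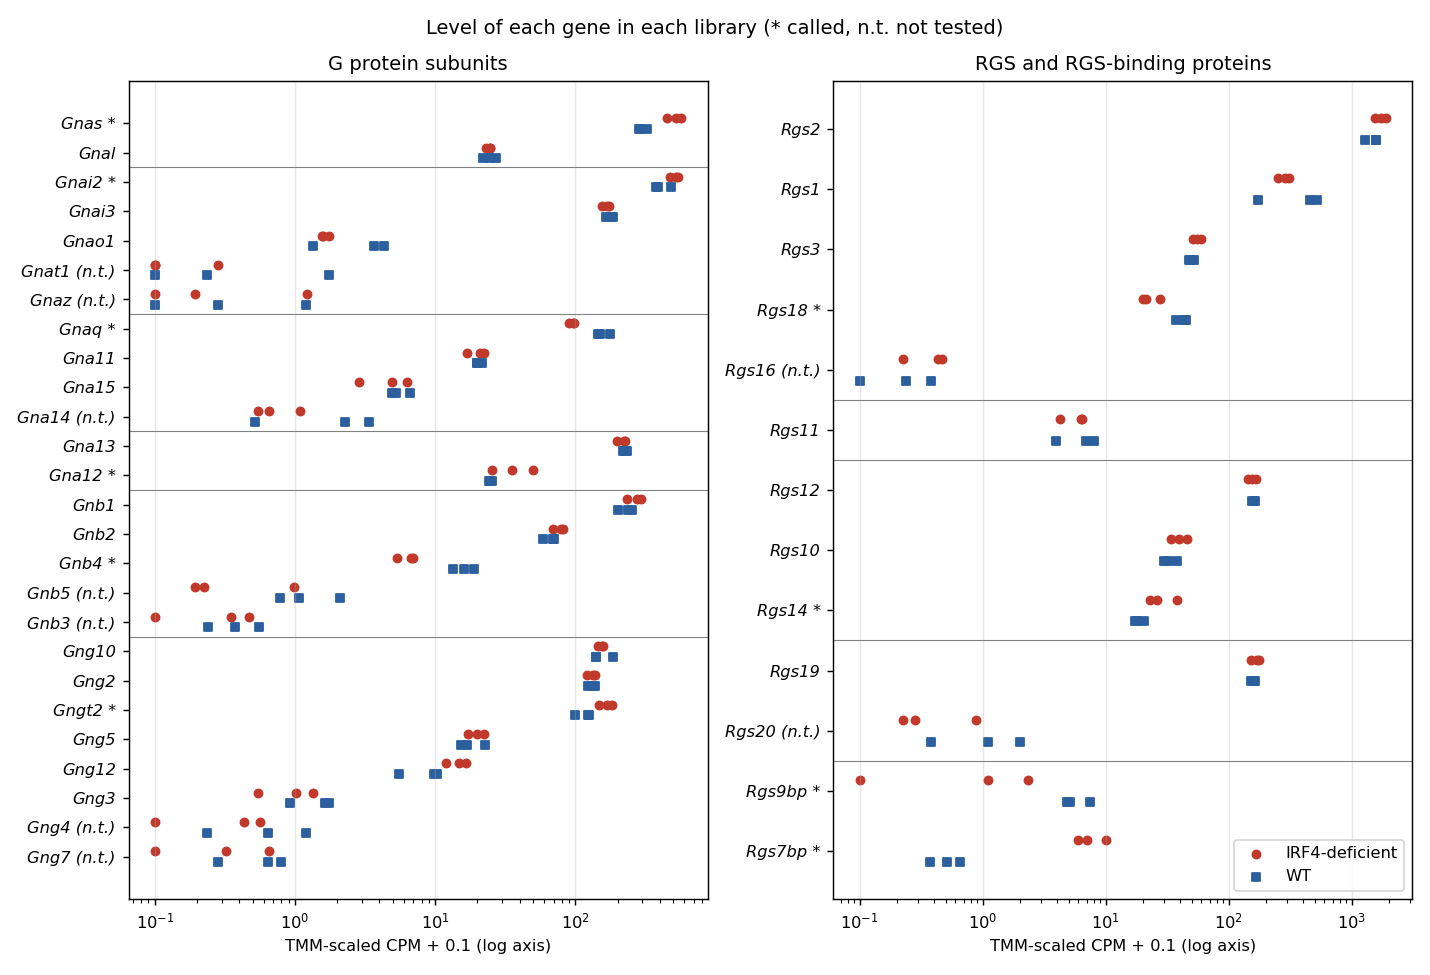
Level of each of the 39 genes in each library, as TMM-scaled CPM plus 0.1 on a log axis, with IRF4-deficient libraries as circles above WT libraries as squares. Lines part the classes of subunits and regulators, asterisks mark the 10 called genes, and Gnaq, Gnb4, Rgs18 and Rgs9bp lie left of WT while Gnas and Rgs7bp lie right of it.

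The α subunit of the cyclase-stimulating class rose while that of the phospholipase-activating class fell. Gnas, which encodes Gαs (chromosome 2, 174284320 to 174346744, plus strand), had 569.9, 449.6 and 520.1 CPM in the IRF4-deficient libraries, against 326, 289.8 and 284 CPM in the WT libraries. All IRF4-deficient values exceeded all WT values, and the means were 513 ± 60.4 CPM for IRF4-deficient cDC2s, against 300.0 ± 22.4 CPM for WT (SD, n = 3 each; log2 fold change 0.78, SE 0.09, edgeR adjusted p = 5.8e-06). The level was 1.71-fold that of WT. In bulk samples fewer cells of a type and less RNA per cell cannot be told apart, for this gene and all others. Gnas is a complex imprinted locus with several first exons, and its counts do not separate its transcripts. On the opposite strand its annotated exons also share 1469 bases with Gm20721 and 988 with the antisense gene Nespas. Neither gene has a row of counts. Gnal, the relative of Gαs known from olfactory neurons, was not called, at 23.9 CPM in IRF4-deficient cDC2s, against 24.4 CPM in WT, with a log2 fold change of -0.03 ± 0.17 (± SE, as for all log2 fold changes).

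Gnaq, the Gαq gene (chromosome 19, 16132831 to 16387463, plus strand), had 98.01, 90.1 and 96.9 CPM in the IRF4-deficient libraries, against 145, 176 and 149 CPM in the WT libraries. It was lower in each IRF4-deficient library than in any WT library, with means of 94.99 ± 4.28 CPM for IRF4-deficient cDC2s, against 157 ± 16.9 CPM for WT (SD, n = 3 each), a 1.65-fold lower level (log2 fold change -0.72, SE 0.10, edgeR adjusted p = 4.51e-05). The other tested members of its class were not called. Gna11, which overlaps Gαq in function, was at 19.96 CPM in IRF4-deficient cDC2s, against 20.2 CPM in WT with a log2 fold change of -0.02 ± 0.19. Gna15, the promiscuous Gα of blood cells, was at 4.58 CPM in IRF4-deficient cDC2s, against 5.53 CPM in WT, with -0.28 ± 0.37 on the log2 scale. Gna14 lies 48.3 kb downstream of Gnaq on the same strand and was too sparse to be tested. It had 6, 8 and 4 reads in the IRF4-deficient libraries, against 3, 24 and 24 reads in the WT libraries. Its summed reads, scaled for depth, gave an IRF4-deficient over WT ratio of 0.323 (95% interval 0.177 to 0.562), an exact binomial interval that covers counting error only.

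RefSeq promoter windows, from 250 bases before to 50 bases after a transcript start, were matched for 26 of the 39 genes, in 36 windows (build GRCm38.p6). Shown are those of Gnas and Gnaq, which moved in opposite directions, and of Rgs7bp, the gene with the largest change. They are written 5′ to 3′ on the gene's strand with CG dinucleotides in capitals. For Gnas the most downstream of its 4 windows is given, and the RefSeq start of Gnaq lies upstream of the GENCODE gene coordinates above.
Gnas (chr2:174329756-174330055, plus strand): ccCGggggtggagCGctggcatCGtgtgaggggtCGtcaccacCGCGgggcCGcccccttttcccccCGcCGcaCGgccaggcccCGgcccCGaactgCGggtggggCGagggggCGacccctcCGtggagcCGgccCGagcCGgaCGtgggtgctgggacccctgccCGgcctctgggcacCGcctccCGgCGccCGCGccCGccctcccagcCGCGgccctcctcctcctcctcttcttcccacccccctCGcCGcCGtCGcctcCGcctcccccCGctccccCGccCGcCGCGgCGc
Gnaq (chr19:16132434-16132733, plus strand): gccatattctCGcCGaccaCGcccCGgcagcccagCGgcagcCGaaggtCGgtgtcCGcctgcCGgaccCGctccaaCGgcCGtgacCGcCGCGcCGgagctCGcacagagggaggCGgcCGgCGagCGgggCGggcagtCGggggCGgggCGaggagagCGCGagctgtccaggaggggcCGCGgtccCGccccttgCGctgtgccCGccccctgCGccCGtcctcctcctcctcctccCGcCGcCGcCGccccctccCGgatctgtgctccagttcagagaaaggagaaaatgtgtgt
Rgs7bp (chr13:105054881-105055180, minus strand): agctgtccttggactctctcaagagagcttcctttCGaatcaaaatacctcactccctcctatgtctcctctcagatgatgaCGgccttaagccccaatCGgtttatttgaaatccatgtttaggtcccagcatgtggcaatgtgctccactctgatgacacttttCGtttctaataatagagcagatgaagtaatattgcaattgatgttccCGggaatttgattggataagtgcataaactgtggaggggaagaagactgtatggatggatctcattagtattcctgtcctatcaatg
The Gnas and Gnaq windows held 40 and 39 CG dinucleotides at a GC content of 81.7% and 75.0%, whereas the Rgs7bp window held 5 at 42.7%. The median over all 32851 windows was 7 CG dinucleotides and 52.7% GC. Both strands were searched for the core of the interferon-stimulated response element (GAAA, any 2 bases, GAAA), the core of the composite element of ETS and IRF factors (GGAA, any 2 bases, GAAA) and the AP-1 site (TGANTCA). The 3 windows printed held none of them. Among the 36 windows 1 held the first, that of Gna13 (GAAACAGAAA), 0 the second, and 2 the third, 1 each of Gng2 and Rgs12. Of all windows 3.44%, 2.72% and 7.81% held them. A match or its absence describes these 300 bases and is no measure of binding.

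Gnai2, the main Gαi gene of leukocytes (chromosome 9, 107614125 to 107635367, minus strand), was higher by less. It had 538, 523 and 477 CPM in the IRF4-deficient libraries, against 485, 389.9 and 375 CPM in the WT libraries. The lowest IRF4-deficient value lay below WT replicate 1, so the groups overlapped, and the level was 1.23-fold that of WT (log2 fold change 0.30, SE 0.10, edgeR adjusted p = 0.0312). The call was lost without IRF4-deficient replicate 1 or 2 or WT replicate 2 or 3, with edgeR adjusted p of 0.111, 0.092, 0.154 and 0.155. Gnai3, its close relative, was at 167 CPM in IRF4-deficient cDC2s, against 177 CPM in WT, and was not called, with a log2 fold change of -0.08 ± 0.09. Gnao1, the Gα abundant in brain, had only 1.53 CPM in IRF4-deficient cDC2s, against 2.99 CPM in WT, and its log2 fold change of -0.98 ± 0.53 (edgeR adjusted p = 0.220) was not called. Gnat1 and Gnaz, known from rod photoreceptors and from neurons and platelets, had 15 and 20 reads in all, too few to be tested.

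Of the Gα12 and Gα13 pair, Gna12 was called and Gna13 was not. Gna12 (chromosome 5, 140758408 to 140830431, minus strand) had 25.4, 35.3 and 50.1 CPM in the IRF4-deficient libraries, against 24.3, 24.0 and 25.1 CPM in the WT libraries. The groups did not overlap, but IRF4-deficient replicate 1 was close to the WT libraries and replicate 3 was the highest (log2 fold change 0.59, SE 0.20, edgeR adjusted p = 0.049). Red pulp macrophage genes followed the same order of libraries, with sums of 1652, 2392 and 3158 CPM in the IRF4-deficient libraries, and their part in the result was not tested. Without IRF4-deficient replicate 3 the log2 fold change of Gna12 was 0.30 (edgeR adjusted p = 0.276), and leaving out any library other than IRF4-deficient replicate 1 ended the call. With all libraries kept it was lost by limma-voom (adjusted p = 0.107) and with the replicate numbers as a block (edgeR, 0.0576). It was also lost in edgeR with upper-quartile factors (0.0504), a filter of 5 CPM in 3 libraries (0.0510) or no robust shrinkage (0.0503). Of the 3416 exon bases of Gna12, 456 are shared with Amz1 on the opposite strand, and Amz1 itself was lower (log2 fold change -0.60). Reads on the shared bases cannot be assigned to a strand. Gna13 was at 216 CPM in IRF4-deficient cDC2s, against 227 CPM in WT, with a log2 fold change of -0.07 ± 0.09.

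Levels can be compared between genes only per length, here in CPM per kilobase of the union of annotated exons. In WT cells Gnai2 led the α subunits with 110.2 ± 15.7 CPM per kb (SD, n = 3), followed by Gnai3 with 54.2, Gna13 with 35.3, Gnas with 26.8 ± 2.01 and Gnaq with 25.3 ± 2.74. On this scale the levels of Gnas and Gnaq in WT differed by less than their spread. In IRF4-deficient cells Gnas was at 45.9 ± 5.40 and Gnaq at 15.4 ± 0.692 CPM per kb. The order depends on the length used: per kilobase of the principal transcript, Gnas stood at 131 in IRF4-deficient and 76.9 CPM per kb in WT cells, second to Gnai2 with 232 in IRF4-deficient and 188 CPM per kb in WT cells. On that scale Gnaq was at 16.8 ± 0.758 in IRF4-deficient and 27.7 ± 3.0 CPM per kb in WT cells, below Gnas in WT (76.9 ± 5.75) by more than the spread.

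**Figure D2:**
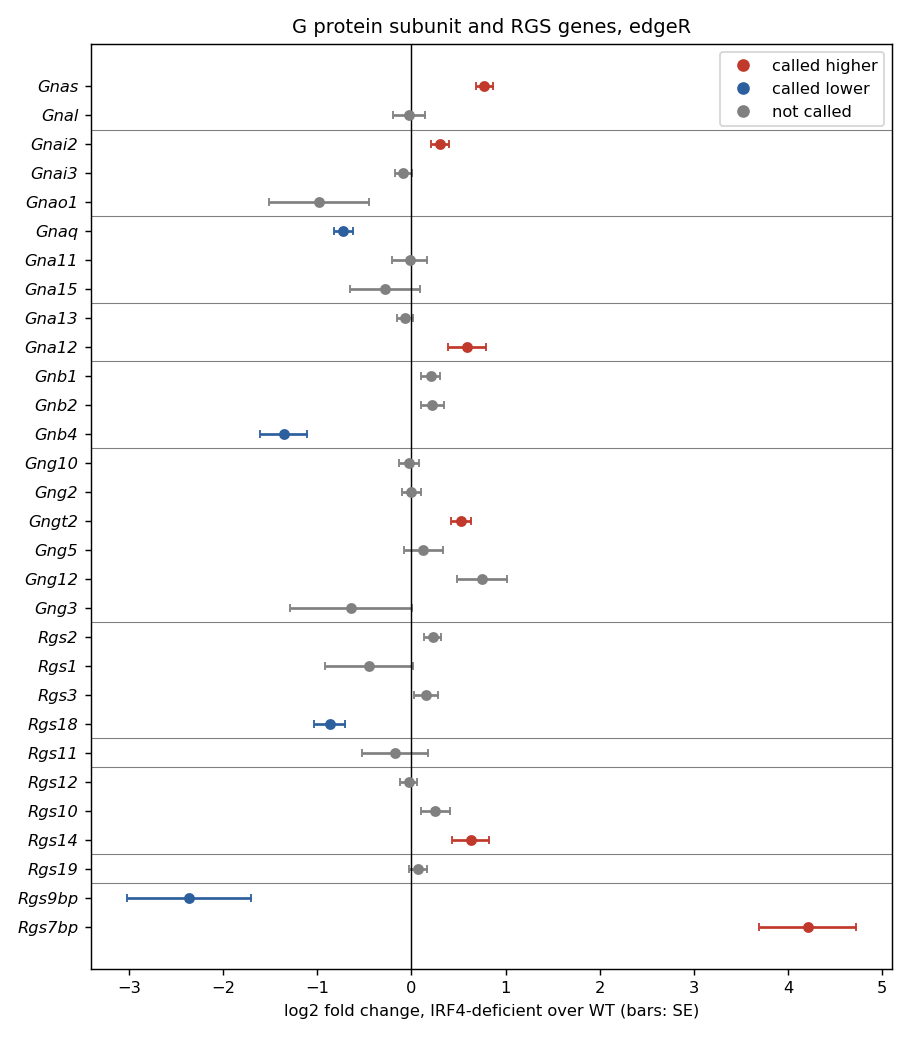
Log2 fold change of IRF4-deficient over WT for the 30 tested genes, with bars of 1 SE from edgeR's quasi-likelihood fit, parted by class. Rgs7bp stands farthest right at 4.21 and Rgs9bp farthest left at -2.36, and most genes lie within 0.3 of 0.

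Among the β subunits, which hold the γ subunit and contact the effectors, Gnb4 fell and the others tested were not called. Gnb4 (chromosome 3, 32580332 to 32616585, minus strand) had 5.25, 6.67 and 6.90 CPM in the IRF4-deficient libraries, against 13.4, 15.9 and 18.7 CPM in the WT libraries. Every WT library was above every IRF4-deficient one, a 2.56-fold lower level in IRF4-deficient cDC2s (log2 fold change -1.35, SE 0.25, edgeR adjusted p = 0.000541). Gnb1 and Gnb2, the β subunits of most tissues, led the class per kilobase, Gnb1 with 62.5 CPM per kb in IRF4-deficient and 54.3 in WT, and Gnb2 with 22.5 in IRF4-deficient and 19.3 in WT. Their log2 fold changes of 0.20 ± 0.10 (edgeR adjusted p = 0.192) and 0.22 ± 0.12 (edgeR adjusted p = 0.236) were not called, although Gnb1 passed without IRF4-deficient replicate 3 (adjusted p = 0.0437). Gnb3, a β subunit of cones and other tissues, had 14 reads in all and was not tested.

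The γ subunits anchor the pair in the membrane through a lipid. Gngt2 (chromosome 11, 95837216 to 95845734, plus strand), known as the γ subunit of cone photoreceptor transducin, had 148, 183 and 168 CPM in the IRF4-deficient libraries, against 124, 122 and 99.6 CPM in the WT libraries. The groups did not overlap, and the level was 1.44-fold that of WT (log2 fold change 0.53, SE 0.11, edgeR adjusted p = 0.00174). Of the 1877 exon bases of Gngt2, 234 are shared with Abi3 on the opposite strand. Abi3 was higher too, at 236 CPM in IRF4-deficient cDC2s, against 167 CPM in WT. Without a known strand setting, reads on the shared bases cannot be assigned within the pair. Per kilobase Gngt2 was second among the γ genes with 88.7 CPM per kb in IRF4-deficient and 61.4 in WT, after Gng10 with 116 in IRF4-deficient and 118 in WT. Of the 1314 exon bases of Gng10, 946 are shared on the same strand with Gm20503, which has no row of counts. The level of Gng10 per kilobase and its rank are therefore uncertain. Gng10, Gng2 and Gng5 were not called, with log2 fold changes that lay between -0.03 and 0.13.

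Gng12 missed the threshold narrowly. It had 14.6, 11.9 and 16.6 CPM in the IRF4-deficient libraries, against 9.68, 10.3 and 5.46 CPM in the WT libraries, so that no IRF4-deficient library was below a WT one (log2 fold change 0.75, SE 0.27, edgeR adjusted p = 0.0524). It was called without IRF4-deficient replicate 2 (adjusted p = 0.047) and when the rows Rn45s and Malat1 were removed (0.0487). Gng3, the γ subunit of neurons, was at 0.867 CPM in IRF4-deficient cDC2s, against 1.34 CPM in WT. Gng4 and Gng7 had 23 and 19 reads in all and were not tested.

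The R4 subfamily holds mostly small RGS proteins made of little more than the RGS domain, and here it held the gene with the highest level per kilobase of all 39. Rgs2, which acts mainly on Gαq, had 1717, 1539.5 and 1903 CPM in the IRF4-deficient libraries, against 1570.2, 1574 and 1270.0 CPM in the WT libraries. The groups overlapped, and the log2 fold change of 0.23 ± 0.09 (edgeR adjusted p = 0.103) was not called, although it passed without IRF4-deficient replicate 2 (adjusted p = 0.0479). Per kilobase of exon union Rgs2 reached 474 ± 50.1 CPM in IRF4-deficient cDC2s, against 406 ± 48.1 CPM in WT (SD, n = 3 each). The next RGS genes on that scale were Rgs19 with 74.7 CPM per kb in IRF4-deficient and 71.1 in WT, and Rgs1 with 40.6 ± 4.02 in IRF4-deficient and 55.4 ± 26.9 in WT.

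Rgs1, which dampens chemokine receptor signals in lymphocytes, turned on a single library. It had 288, 306 and 252 CPM in the IRF4-deficient libraries, against 457, 525 and 173 CPM in the WT libraries. The IRF4-deficient libraries lay close together, between WT replicate 3 below them and WT replicates 1 and 2 above. With all libraries it was not called (log2 fold change -0.45, SE 0.46, edgeR adjusted p = 0.596). Without WT replicate 3 its log2 fold change was -0.80 and it was called lower (edgeR adjusted p = 2.04e-05), and with replicate 3 of both groups left out it was -0.73 (adjusted p = 3.63e-06). WT replicate 3 was also the lowest in the summed level of a list of immediate early genes, which cells switch on within minutes of a stimulus. The 14 genes of that list summed to 2637, 2982 and 2475 CPM in the IRF4-deficient libraries, against 4384, 3769 and 1417 CPM in the WT libraries. Of the 14 genes 2 were called, Atf3 and Ier3, both lower, beside 10.5% of all genes tested. Not every gene followed the sum. Atf3 was at 11.9 CPM in WT replicate 3, above the 3.90 to 6.80 CPM of the IRF4-deficient libraries. For Ier3, Egr3 and Btg2 the lowest library was IRF4-deficient replicate 3. Egr1, on the same list and not called, had 235, 283 and 224 CPM in the IRF4-deficient libraries, against 834, 672 and 71.98 CPM in the WT libraries. The part of this difference between WT libraries in the Rgs1 result was not tested.

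Rgs18, an R4 member best known from platelets and other blood cells, fell. It had 20.1, 21.01 and 27.5 CPM in the IRF4-deficient libraries, against 44.9, 37.3 and 43.2 CPM in the WT libraries, with all WT libraries above all IRF4-deficient ones and a level 1.83-fold lower (log2 fold change -0.87, SE 0.17, edgeR adjusted p = 0.000731). Of the platelet and megakaryocyte markers 5 were in the table. Ppbp, Itga2b and Gp9 were under 1 CPM in every library but 1, the exception being Itga2b at 1.01 CPM in IRF4-deficient replicate 1. Itgb3, an integrin chain that myeloid cells share with platelets, was higher at 196 CPM in IRF4-deficient cDC2s, against 36.8 CPM in WT. Gp1ba was at 4.59 CPM in IRF4-deficient cDC2s, against 3.30 CPM in WT, and was not called. The list as a whole summed to 176 to 227 CPM in IRF4-deficient and 40.3 to 42.6 CPM in WT libraries, most of it Itgb3, and the part of platelets in the Rgs18 result was not tested. Rgs3 was at 54.96 CPM in IRF4-deficient cDC2s, against 49.5 CPM in WT, and was not called, with a log2 fold change of 0.15 ± 0.13, and Rgs16 had 11 reads in all.

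Rgs2, Rgs1 and Rgs18 are neighbours on the minus strand of chromosome 1, with Rgs2 at 143999338 to 144004161, Rgs1 238.1 kb from it at 144242296 to 144249242, and Rgs18 another 503.4 kb on at 144752683 to 144775435. Their log2 fold changes of 0.23 ± 0.09, -0.45 ± 0.46 and -0.87 ± 0.17 differed in sign, and 1 of the 3 was called.

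**Figure D3:**
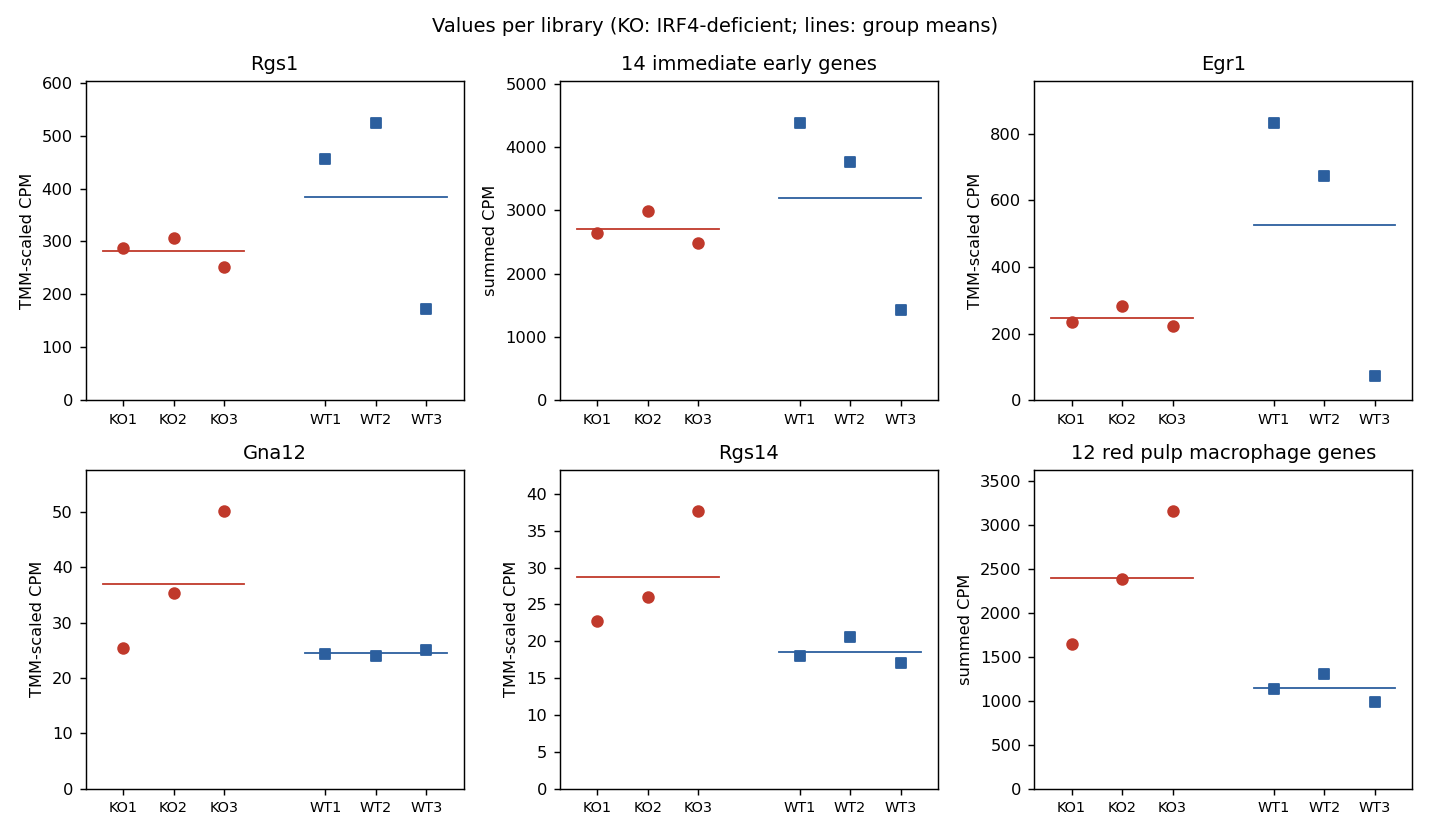
Values in each library for Rgs1, the sum of 14 immediate early genes and Egr1 (upper row) and for Gna12, Rgs14 and the sum of 12 red pulp macrophage genes (lower row), in TMM-scaled CPM with lines at group means and IRF4-deficient libraries (KO) on the left. WT replicate 3 is lowest in each panel of the upper row, and IRF4-deficient replicate 3 highest in each panel of the lower row.

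In the R12 subfamily, whose members act on Gαi, Rgs14 was called, and Rgs12 and Rgs10 were not. Rgs14, which binds Gαi through a second domain and also binds Ras-type GTPases, had 22.7, 25.95 and 37.6 CPM in the IRF4-deficient libraries, against 17.98, 20.5 and 17.1 CPM in the WT libraries. The groups did not overlap, and IRF4-deficient replicate 3 stood apart from the others (log2 fold change 0.63, SE 0.20, edgeR adjusted p = 0.0312). Its level followed the sums of red pulp macrophage genes over the IRF4-deficient libraries, as given for Gna12, and their part in it was not tested. Without IRF4-deficient replicate 3 the log2 fold change was 0.38 and the call was lost (edgeR adjusted p = 0.180), as it was without WT replicate 1 or 3 (0.085 and 0.109). It was lost as well with the replicate numbers as a block (0.0517) and by limma-voom (adjusted p = 0.0628).

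Rgs12, the multidomain member of the subfamily, was at 155 CPM in IRF4-deficient cDC2s, against 158 CPM in WT, with a log2 fold change of -0.03 ± 0.09. Rgs10, the short one, was at 39.5 CPM in IRF4-deficient cDC2s, against 33.2 CPM in WT, with 0.25 ± 0.16 on the log2 scale. Rgs19 of the RZ subfamily, which acts on Gαi and Gαz, was not called either, at 167 CPM in IRF4-deficient cDC2s, against 158 CPM in WT, with 0.07 ± 0.09 on the log2 scale. Rgs20 of the same subfamily had 2, 1 and 7 reads in the IRF4-deficient libraries, against 2, 11 and 14 reads in the WT libraries, and was not tested.

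The R7 subfamily pairs with the atypical β subunit Gβ5 in place of a γ subunit, and the complex is held at membranes by the anchor proteins R7BP and R9AP, encoded by Rgs7bp and Rgs9bp. Both anchors changed, in opposite directions. Rgs7bp (chromosome 13, 104945904 to 105054930, minus strand; its promoter is printed above) had 75, 47 and 90 reads in the IRF4-deficient libraries, against 4, 3 and 3 reads in the WT libraries. This is 6.90, 5.81 and 10.02 CPM in the IRF4-deficient libraries, against 0.553, 0.273 and 0.410 CPM in the WT libraries, and the lowest IRF4-deficient level was above the highest WT level. The fitted level was 18.5-fold that of WT (log2 fold change 4.21, SE 0.51, edgeR adjusted p = 6.09e-06). The depth-scaled ratio of summed reads was 19.4 (95% interval 10.3 to 41.02, counting error only).

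Rgs9bp (chromosome 7, 35578993 to 35585582, minus strand) had 11, 0 and 20 reads in the IRF4-deficient libraries, against 36, 52 and 54 reads in the WT libraries. It was above 4 CPM in each WT library and below 3 CPM in each IRF4-deficient one (log2 fold change -2.36, SE 0.66, edgeR adjusted p = 0.0172). The ratio of its summed reads was 0.200 (95% interval 0.131 to 0.296, counting error only). The 0 reads in IRF4-deficient replicate 2 allow a level of up to 0.371 CPM, the level of 3 reads. The call was lost without IRF4-deficient replicate 1 (adjusted p = 0.0614) or WT replicate 3 (0.077).

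Those known partners of these anchors that had a row of counts had few reads. Among them Rgs11 was the R7 member with enough reads to be tested. It had 4.14, 6.18 and 6.35 CPM in the IRF4-deficient libraries, against 3.87, 7.91 and 6.83 CPM in the WT libraries. The groups overlapped, and its log2 fold change was -0.18 ± 0.35 (edgeR adjusted p = 0.781). Gnb5 had 1, 1 and 8 reads in the IRF4-deficient libraries, against 7, 22 and 5 reads in the WT libraries, under the filter, and the groups overlapped. Its ratio of summed reads was 0.269 (95% interval 0.119 to 0.557, counting error only). Rgs9 had 5 reads in all.

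**Figure D4:**
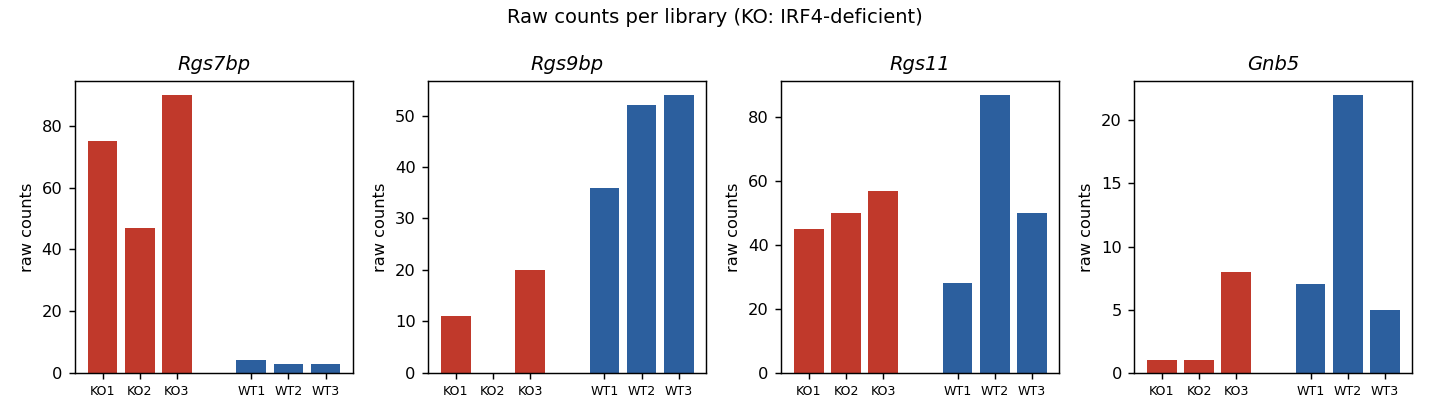
Raw counts of the anchor genes Rgs7bp and Rgs9bp, of the R7 regulator Rgs11 and of the β5 subunit gene Gnb5 in each library, with IRF4-deficient libraries (KO) left of WT. Rgs7bp had 47 to 90 reads in IRF4-deficient and 3 to 4 in WT libraries, while Rgs9bp had 0 to 20 in IRF4-deficient and 36 to 54 in WT.

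Effectors and regulators of G protein signalling were taken as 7 lists of 48 genes in the table, of which 42 were tested. Of these 8 were called higher and 9 lower, beside 9.87% and 10.5% of all genes tested, and the median log2 fold change was 0.183, beside 0.003 over all genes. The lists were chosen with earlier results of these data known, so this comparison only describes them.

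On the cyclic AMP branch, downstream of Gαs and Gαi, most tested genes were not called, and the called ones were mostly lower. Adcy6, an adenylyl cyclase inhibited by Gαi, had 19.1, 14.3 and 16.4 CPM in the IRF4-deficient libraries, against 57.3, 85.9 and 92.2 CPM in the WT libraries (log2 fold change -2.24, SE 0.18, edgeR adjusted p = 6.65e-08). It was the called gene among 4 tested cyclases, beside 20.4% of all genes. Adcy7 was not called, at 306 CPM in IRF4-deficient cDC2s, against 351 CPM in WT. Of 7 tested genes for cyclic AMP-dependent kinase subunits and cyclic AMP-regulated exchange factors 3 were called lower and 1 higher, beside 10.5% and 9.87% of all genes. Prkar2b and Prkar2a, regulatory subunits of the kinase, were lower by log2 fold changes that came to -0.82 ± 0.15 and -0.50 ± 0.13. For Rapgef4, the exchange factor EPAC2, it was -2.07 ± 0.45. Prkar2a was not called without WT replicate 1 (adjusted p = 0.0699). Prkar1b was called higher at 4.61 CPM in IRF4-deficient cDC2s, against 1.31 CPM in WT, though not without IRF4-deficient replicate 3 (0.374) or any 1 WT replicate (0.0536 to 0.174). The catalytic subunit genes Prkaca and Prkacb were not called, but Prkacb passed as higher without IRF4-deficient replicate 3 (0.00844) and Prkaca without IRF4-deficient replicate 2 (0.029) or WT replicate 2 (0.0469). Of 8 phosphodiesterase genes, whose products break down cyclic AMP, 2 were called lower, beside 10.5% of all genes. Pde4a was at 29.7 CPM in IRF4-deficient cDC2s, against 55.8 CPM in WT. Pde7a was at 49.1 CPM in IRF4-deficient cDC2s, against 90.3 CPM in WT. Pde4b was called lower as well without IRF4-deficient replicate 3 (0.00154).

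On the phospholipase branch, downstream of Gαq and βγ, Plcb1 and Plcb4 were far higher and Plcb2, the form of blood cells, was lower. Plcb4 had 201, 239 and 231 CPM in the IRF4-deficient libraries, against 16.6, 13.8 and 14.6 CPM in the WT libraries (log2 fold change 3.90, SE 0.12, edgeR adjusted p = 1.23e-13). Plcb1 had 80.6, 89.97 and 117 CPM in the IRF4-deficient libraries, against 2.21, 2.55 and 2.60 CPM in the WT libraries (log2 fold change 5.28, SE 0.20, edgeR adjusted p = 1.11e-12). Neither gene overlapped between the groups. Plcb2 was at 309 CPM in IRF4-deficient cDC2s, against 372 CPM in WT, with a log2 fold change of -0.26 ± 0.08 (edgeR adjusted p = 0.0291) that was not called without IRF4-deficient replicate 1 or 2 or WT replicate 2 or 3 (0.071 to 0.126).

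Among the effectors of βγ, Pik3r6, a regulatory subunit of phosphoinositide 3-kinase γ, had 75.01, 62.2 and 57.8 CPM in the IRF4-deficient libraries, against 17.3, 16.7 and 19.1 CPM in the WT libraries (log2 fold change 1.88, SE 0.15, edgeR adjusted p = 3.22e-08). The groups did not overlap. Pik3r5, the alternative regulatory subunit, was higher, with 0.45 ± 0.14 on the log2 scale, a call that was lost without any 1 of the WT replicates (0.102 to 0.129) and with other filters on low counts. The catalytic subunit gene Pik3cg, at 433 CPM in IRF4-deficient cDC2s, against 368 CPM in WT, was called only without IRF4-deficient replicate 2 (0.0452).

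The genes that switch receptors off went both ways, with 3 of 7 tested called higher and 2 lower, beside 9.87% and 10.5% of all genes. Arrb1, the gene of β-arrestin 1, had 116, 138 and 135 CPM in the IRF4-deficient libraries, against 54.9, 51.7 and 51.2 CPM in the WT libraries (log2 fold change 1.30, SE 0.11, edgeR adjusted p = 8.96e-08). Arrb2 rose less, with 0.41 ± 0.11 on the log2 scale, and was not called without WT replicate 3 (0.0831). Among the receptor kinases Grk6 was higher at 35.7 CPM in IRF4-deficient cDC2s, against 20.2 CPM in WT, while Adrbk2, also named Grk3, was lower at 593 CPM in IRF4-deficient cDC2s, against 874 CPM in WT, with a log2 fold change of -0.56 ± 0.10 (edgeR adjusted p = 0.000375). Adrbk1, also named Grk2, was called higher only without IRF4-deficient replicate 1 (0.0358). Grk4, at 2.27 CPM in IRF4-deficient cDC2s, against 5.38 CPM in WT, was called lower, but not without IRF4-deficient replicate 1 or 3 or WT replicate 2 or 3 (0.0797 to 0.250). Of 8 chaperones and modulators of G proteins, among them Ric8 and Gpsm3, 0 were called by edgeR, beside 20.4% of all genes tested. That was with the filter and TMM factors, and 0 were called by DESeq2. An unadjusted edgeR p under 0.05 was found for 2 of them, Ccdc88a and Pdcl. Ccdc88a was called higher under 6 alternatives, with adjusted p of 0.0384 by limma-voom, 0.0482 with DESeq2 size factors in edgeR, 0.0439 without the filter on low counts, 0.0402 without Rn45s and Malat1, 0.0149 without WT replicate 3 and 0.0171 with replicate 3 of both groups left out.

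**Figure D5:**
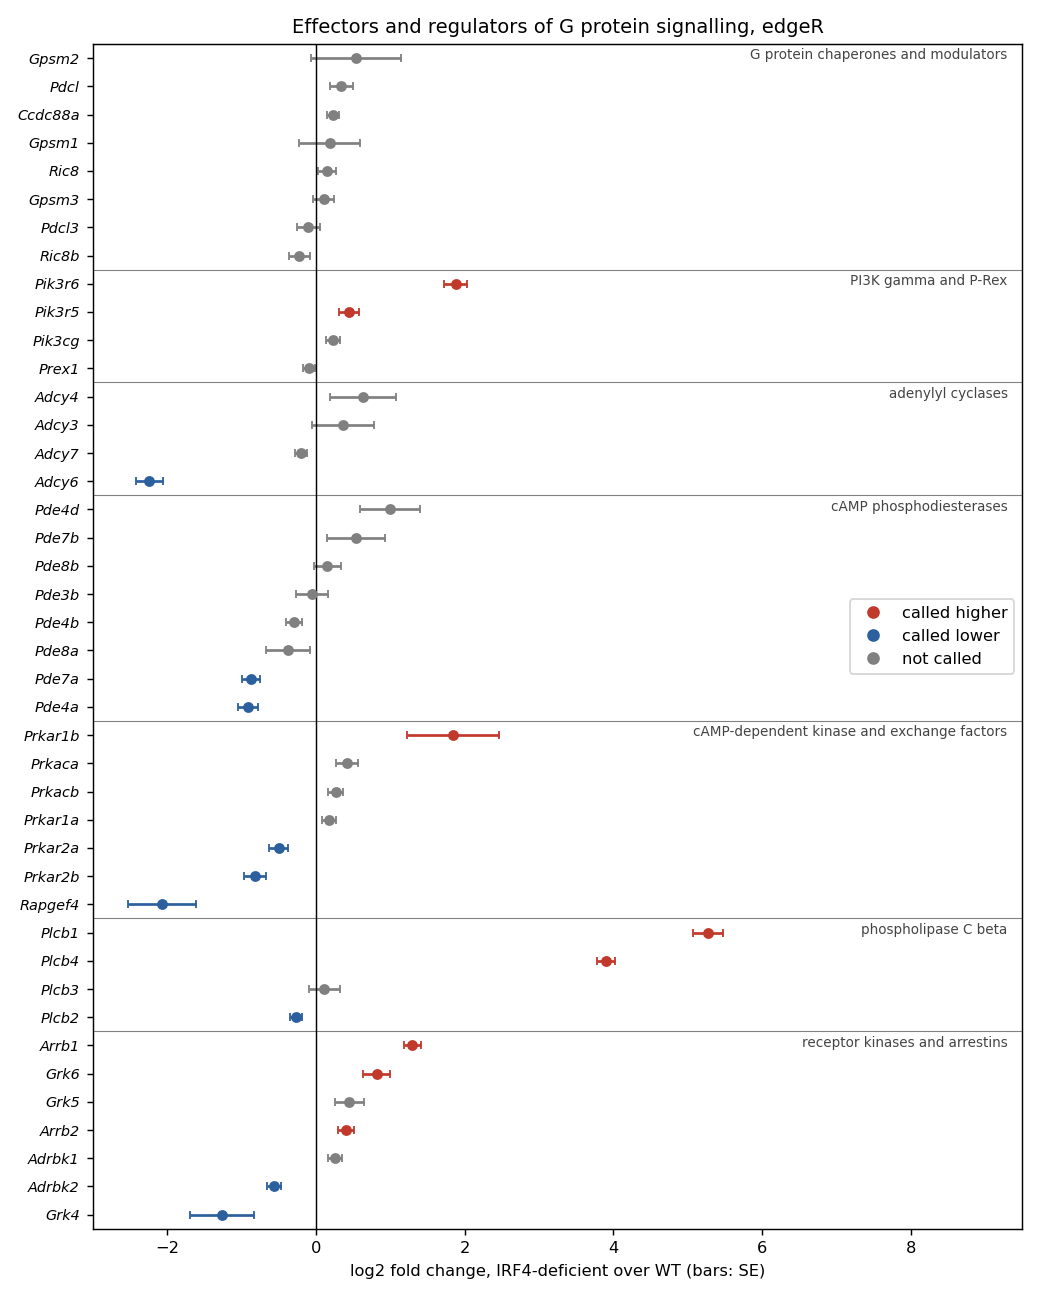
Log2 fold change of IRF4-deficient over WT, with bars of 1 SE, for the 42 tested genes of the effector and regulator lists. Plcb1 at 5.28 and Plcb4 at 3.90 lie farthest right, Adcy6 at -2.24 and Rapgef4 at -2.07 farthest left, and 8 genes were called higher and 9 lower.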

How the data were processed

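A column of counts for each of the 6 libraries was deposited, in rows named by gene symbol, and their whole numbers and unequal totals show that the counts were not normalized. The submitters' processing notes name STAR, HTSeq and DESeq2 and the build mm10. Versions, annotation and strand setting are not stated there, so reads on exon bases shared by overlapping genes cannot be told apart. WT columns were matched to samples through source names. Replicate numbers are those of the sample titles, and the WT columns carry other numbers. All columns were used.

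Genes were filtered with filterByExpr, scaled by TMM and tested in edgeR 4.0.16 (R 4.3.3, robust quasi-likelihood, prior count 0.125), without a block. A call is a Benjamini-Hochberg adjusted p under 0.05 over all genes tested. SEs come from the F statistic. On simulated data 67, 67 and 66 of 11942 genes were changed by 1.5-fold, 2-fold and 4-fold. The fit recovered 35.8%, 92.5% and 98.5% of them, and 3 of its 154 calls were false. In the real data a larger share of genes was called (20.4%), so these rates need not hold there. A gene that was not called may still differ by 1.5-fold. Lengths and locations are from GENCODE M21 on GRCm38. Members and lists were chosen with earlier results of these data known. Every gene that meets the symbol rule could be named. Of the other lists, up to 6 genes with the smallest p and any at 50 CPM or more could be named. Amz1, Abi3, Gm20503, Gm20721 and Nespas were named for their overlap after values were seen. Alternatives were DESeq2 1.42.0, limma-voom (limma 3.58.1), other factors and filters, the block, and leaving out libraries. A further list of effector genes is not reported here.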

Additional observations from a re-analysis of the deposited data

How the results depend on the processing

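Of the 10 called genes 6 were called under each of the 16 alternatives: Gnas, Gnaq, Gnb4, Gngt2, Rgs18 and Rgs7bp. No call changed direction. The number of the genes called higher was 6, and 4 to 6 across the alternatives that kept all libraries, except for 7 without Rn45s and Malat1. Leaving out 1 library gave 3 to 6 called higher, the 3 without WT replicate 3, and 3 to 4 called lower. With replicate 3 of both groups left out, an alternative added after seeing the data, 3 were called higher and 5 lower. Over all genes the calls numbered 1779 to 2492. With the replicate block 4 genes were called higher and 4 lower, and 2267 of all genes. Under it Gna12 and Rgs14 were lost (adjusted p 0.0576 and 0.0517), and no other call among the 39 changed. The labels do not say that equal numbers mark a shared animal or day, so the numbers were not taken as pairs. Deviations of same-numbered libraries from their group means had correlations of -0.010, 0.052 and -0.015. IRF4-deficient replicates 1 and 3 correlated better with another number. These values cannot show whether pairs existed, as the WT columns are numbered otherwise than the sample titles. The 9 genes under the filter had 11 to 69 reads in all, which limits what can be said of them, and without the filter 6 genes were again called higher and 4 lower.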
